A study of Microtus ochrogaster with 46 samples.

Results

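The mitochondrial genome of mammals encodes 13 proteins, and 6 of the 17479 rows of the deposited expression table are described here as its cytochrome and ATP synthase subunits. They are ENSMOCG00000000016, ENSMOCG00000000019 and ENSMOCG00000000023, taken as COX1, COX2 and COX3 of complex IV, ENSMOCG00000000021 and ENSMOCG00000000022, taken as ATP8 and ATP6 of complex V, and ENSMOCG00000000035, taken as CYTB of complex III. The members were chosen by identifier alone. The table gives no symbols for them, and the names are inferred from the order of the identifiers, the lowest of which run in the gene order of a mammalian mitochondrial genome. Of the identifiers numbered 1 to 37, the table holds 13, and these 13 fall on the places of the protein-coding genes in that order: the 6 members and 7 rows placed as complex I subunits. No row falls on the place of a ribosomal or transfer RNA.

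Complexes III, IV and V are assembled in the inner mitochondrial membrane from subunits of both the nuclear and the mitochondrial genome. Complex III passes electrons from ubiquinol to cytochrome c, complex IV passes them from cytochrome c to oxygen, and complex V, the ATP synthase, uses the proton gradient that the respiratory chain builds up. Mitochondrial genes are transcribed as long precursors that are cut into single messengers, most of which receive short poly(A) tails, so they are seen in poly(A) libraries. Neurons depend on oxidative phosphorylation to restore their ion gradients, and mitochondrial messengers are abundant in brain RNA.

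RNA came from tissue punches of the nucleus accumbens, part of the ventral striatum, of 46 prairie voles (Microtus ochrogaster), a rodent that forms lasting bonds between mates. Sexually naive animals, 10 females and 6 males, had spent 3 weeks caged with a littermate of their own sex. The others had lived with a partner of the opposite sex, either for 24 h (10 females and 6 males) or for 3 weeks (9 females and 5 males). These numbers follow the sample titles, while the series text gives 6 females at 3 weeks. No allele, agent or age is used here. Between paired and naive animals, a partner of the opposite sex and a change of cage mate cannot be told apart. Between 24 h and 3 weeks, time with the partner and time since that change cannot be told apart. In tissue punches fewer cells of a type and less RNA per cell cannot be told apart either. The identity of the tissue was not checked against marker genes, since the rows carry no symbols apart from Avpr1a.

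Values are log2(normalized count + 1), and every difference below is on that log2 scale. Estimated depth was 15.3 to 37.8 M reads per library (M for mega), with a median of 29.1 M. The libraries fell into 2 patterns of gene-specific normalization factors, which are defined from the low values of the table and are not study groups. Pattern B held all 6 naive males, all 5 males at 3 weeks, 1 female at 24 h (replicate 8) and 2 females at 3 weeks (replicates 3 and 7), and pattern A held the other 32 libraries. With a wider tolerance for the low values pattern B held 11 libraries, the males alone. Comparisons of males at 24 h with other males therefore run across the patterns, and so do those of naive males with naive females, where group and pattern cannot be told apart. At 3 weeks all 5 males but 2 of 9 females were of pattern B. A fit with the pattern as a term takes its effect from the 3 pattern B females alone, since no male group holds both patterns. On a scale from pattern A towards pattern B these 3 had positions of 0.30 to 0.38, against 0.64 to 1.28 in the pattern B males. The pattern B end of this scale was set by the pattern B males alone, each library's own values left out. That these males stand nearest to it is therefore partly built in. Fits with a library's position as a covariate, given below, use this same scale. Mitochondrial sequences also have near-identical copies in nuclear genomes, and the libraries do not mark strand, so the values may hold reads from such copies or from the opposite strand.

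Together the 6 members took up 7.8% ± 0.614 (SD, n = 46) of the normalized counts of a library, between 6.95% and 9.44%. All 13 mitochondrial rows took up 12.8% ± 1.06. In the 10 naive females the 6 members averaged 7.31% ± 0.264 (SD), in the 10 paired for 24 h 7.73% ± 0.417 and in the 9 paired for 3 weeks 8.17% ± 0.796. The 6 naive males averaged 8.2% ± 0.762 (SD), the 6 paired for 24 h 7.66% ± 0.476 and the 5 paired for 3 weeks 7.94% ± 0.454. Naive females thus had the lowest mean share and the narrowest spread, and the groups overlapped.

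COX1 is the catalytic core of complex IV and holds its heme groups. In naive females its log2 level lay between 19.42 and 19.63 (median 19.48), in females at 24 h between 19.38 and 19.71 (median 19.56), and in females at 3 weeks between 19.48 and 19.89 (median 19.68). Naive males lay between 19.44 and 19.77 (median 19.67) and males at 24 h between 19.38 and 19.68 (median 19.56). The 5 males at 3 weeks stood at 19.51, 19.65, 19.45, 19.58 and 19.65. The 6 groups overlapped, and their means spanned 0.17, from 19.50 ± 0.06 (SD, n = 10) in naive females to 19.67 ± 0.15 (n = 9) in females at 3 weeks.

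COX2 carries the copper centre that accepts electrons from cytochrome c. Naive females lay between 17.59 and 17.81 (median 17.73), females at 24 h between 17.61 and 18.01 (median 17.85) and females at 3 weeks between 17.69 and 18.29 (median 17.90). The 6 naive males stood at 18.38, 17.93, 18.07, 17.94, 17.83 and 17.91. Males at 24 h lay between 17.63 and 17.98 (median 17.78), and the males at 3 weeks stood at 18.01, 17.98, 17.76, 17.81 and 17.88. Every naive male was above every naive female, and 5 of the 6 males at 24 h were below the lowest naive male. Counts of libraries beyond another group's range, here and for the rows below, were not made over all genes. The exception is the full separation of naive males from naive females, given further on. The means ran from 17.72 ± 0.08 (SD, n = 10) in naive females to 18.01 ± 0.20 (n = 6) in naive males.

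COX3, the third subunit of the complex IV core, had its lowest mean in naive females, at 18.50 ± 0.06 (SD, n = 10), with libraries from 18.42 to 18.59. Females at 24 h averaged 18.66 ± 0.14 (n = 10), with libraries from 18.38 to 18.88, and 8 of these 10 were above the highest naive female. Females at 3 weeks averaged 18.70 ± 0.18 (n = 9), with a lowest library of 18.45, and 6 of these 9 were above the highest naive female. The 6 naive males averaged 18.67 ± 0.20, the 6 paired for 24 h 18.61 ± 0.12 and the 5 paired for 3 weeks 18.64 ± 0.09 (SD), and the naive males alone spread from 18.36 to 18.97.

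ATP6 forms part of the proton path of the ATP synthase. The 10 naive females averaged 18.39 ± 0.09 (SD), the 10 paired for 24 h 18.53 ± 0.14 and the 9 paired for 3 weeks 18.58 ± 0.20, with libraries between 18.23 and 18.90. Naive males averaged 18.53 ± 0.25 (SD, n = 6), males paired for 24 h 18.46 ± 0.10 (n = 6) and males paired for 3 weeks 18.51 ± 0.14 (n = 5). Among naive males it ran from 18.08 in replicate 2 to 18.80 in replicate 1, which was wider than in any other group.

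ATP8, a small membrane subunit of the ATP synthase, is encoded on the same messenger as ATP6, with overlapping reading frames. Naive females lay between 15.18 and 15.49 (mean 15.36 ± 0.11, SD, n = 10), females paired for 24 h averaged 15.48 ± 0.16 (n = 10) and those paired for 3 weeks 15.56 ± 0.21 (n = 9). The 6 naive males stood at 15.56, 14.66, 15.10, 15.59, 15.49 and 15.71, so that 2 of them were below every naive female and 3 above. Males at 24 h lay between 15.26 and 15.60, and the males at 3 weeks stood at 15.01, 15.47, 15.31, 15.59 and 15.65. The within-group SD of ATP8 was 0.21 over all groups, against 0.11 for COX1 and 0.14 to 0.16 for the other 4 members. Among the 5186 rows with a mean of at least 1000 normalized counts the median within-group SD was 0.14.

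CYTB is the cytochrome b subunit of complex III, at which ubiquinol is oxidised. The 10 naive females averaged 18.22 ± 0.09 (SD), against 18.31 ± 0.10 for the 10 paired for 24 h and 18.41 ± 0.19 for the 9 paired for 3 weeks. Males stood at 18.37 ± 0.20 when naive (SD, n = 6), 18.26 ± 0.11 after 24 h (n = 6) and 18.35 ± 0.07 after 3 weeks (n = 5). All 9 females at 3 weeks were above the naive female median of 18.20, and 5 of them were above the highest naive female.

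**Figure D1:**
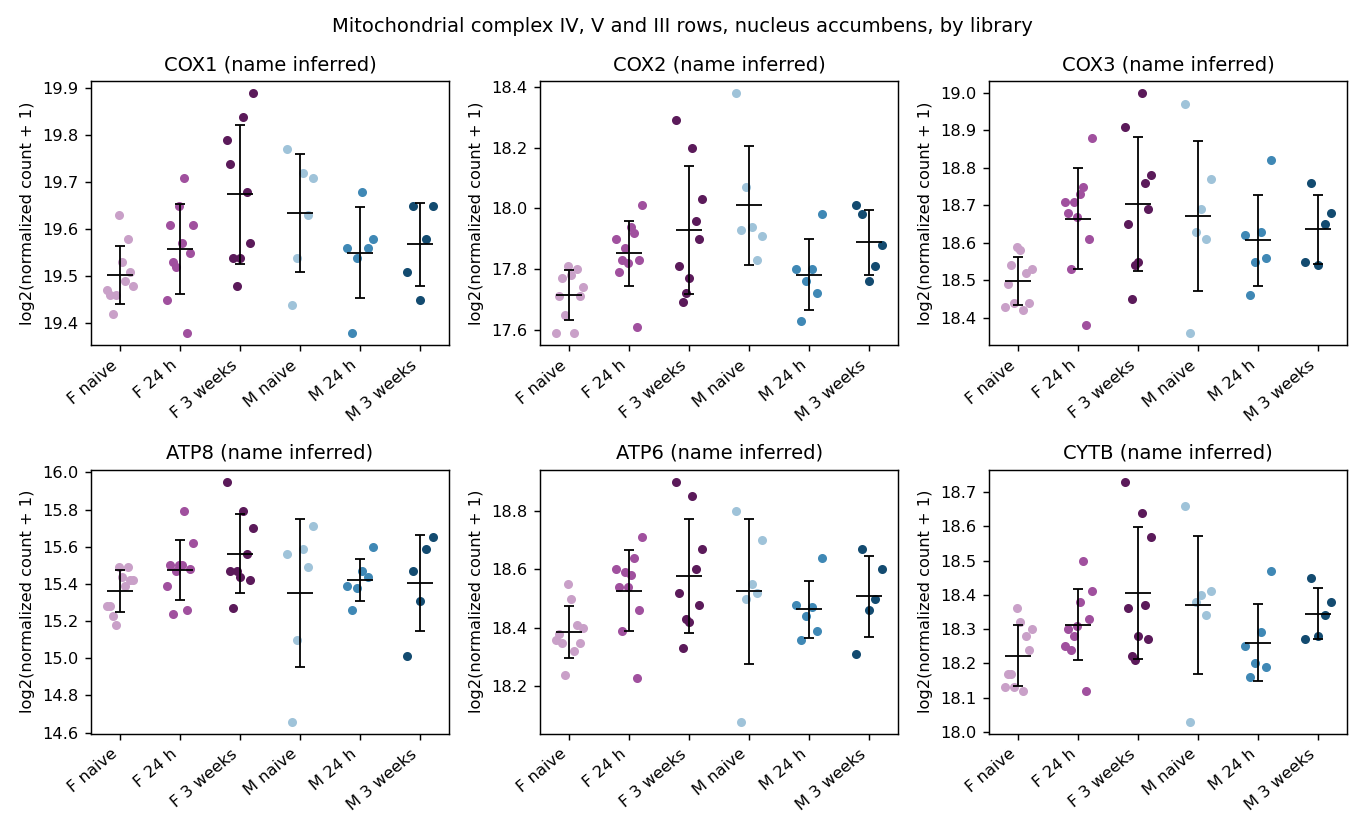
Log2(normalized count + 1) of the 6 rows in each of the 46 libraries, by sex (F, M) and condition; each panel has its own vertical axis, which does not start at 0, and black bars give mean ± SD. Naive females lie close together in all 6 panels, while females at 3 weeks and naive males spread further.

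In 5 of the 6 members the group with the lowest mean was the naive females, and in ATP8 naive males were lowest, at 15.35, with naive females next. Females at 3 weeks had the highest mean in 5 members, and in COX2 the naive males had. Neighbouring groups in these orders were 0.00 to 0.11 apart. The lowest and the highest group of a member were 0.17 to 0.29 apart. These orders are a description, since only the difference at the ends of the COX2 order passed the test, as given below.

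Between females at 24 h and naive females, 0 of the 6 members passed limma with an adjusted p under 0.05, where 0.104% of all 14455 tested genes did. All 6 differences were above 0, from 0.05 for COX1 to 0.17 for COX3, with a median of 0.12 against -0.01 over all genes. COX3 differed by 0.17 (SE 0.06, 95% interval 0.04 to 0.29, adjusted p = 0.146 by limma), COX2 by 0.14 (SE 0.06, adjusted p = 0.232) and ATP6 by 0.14 (SE 0.07, adjusted p = 0.249). These 3 had an unadjusted p under 0.05, as 19.4% of all genes did. The upper interval bounds of the 6 members were at most 0.30, a 1.23-fold difference, for ATP8.

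After 3 weeks with a partner 0 members passed against naive females, as did 0% of all genes by limma. The 6 differences were close to each other, between 0.17 and 0.21 with a median of 0.20, while the median over all genes was 0.00. COX1 differed by 0.17 (SE 0.05, interval 0.07 to 0.27), COX2 by 0.21 (SE 0.07, interval 0.08 to 0.34) and CYTB by 0.19 (SE 0.06, interval 0.06 to 0.31). The limma adjusted p was 0.893 for each of the 6. All 6 had an unadjusted p under 0.05 by limma, the smallest being 0.00138 for COX1, where 4.91% of all genes had such a p. The members varied together between animals, as described below. Counts of members in this and the other comparisons are therefore not counts of independent results. The differences correspond to levels 1.13-fold to 1.16-fold those of naive females. Both female comparisons use the same 10 naive females.

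Female replicates 1, 6 and 9 at 3 weeks were the 3 highest libraries of their group in all 6 members. Replicate 1 also had the lowest estimated depth of all libraries, at 15.3 M reads, and 57.1% of its low values were within 0.1 reads of whole numbers, against a median of 84.9% over all libraries. With log2 depth as a covariate the 6 differences were 0.17 to 0.20. Leaving out 1 library at a time kept the difference between 3 week and naive females at 0.14 to 0.20 for COX1 and at 0.17 to 0.24 for COX2. Within pattern A alone the 6 differences were 0.19 to 0.25. Quantile normalization, which gives the highest rows of every library nearly the same values, left 0.00 for COX2, COX3 and CYTB, -0.03 for ATP6 and 0.15 for ATP8.

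Between females at 3 weeks and at 24 h the differences were 0.04 to 0.12, and 0 of 6 members passed, as did 0% of all genes by limma. COX1 was the only member with an unadjusted p under 0.05, with a difference of 0.12 (SE 0.05, interval 0.02 to 0.22, adjusted p = 0.54 by limma). Over all genes 8.63% had such a p. For COX3 the interval ran from -0.09 to 0.17, so that neither a fall of up to 0.09 nor a rise of up to 0.17 was excluded.

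In males at 24 h, 0 of the 6 members passed against naive males, where 0.242% of all genes did. In 5 members the difference was below 0 and in ATP8 it was 0.07, with a median of -0.07 against 0.00 over all genes. COX2 differed by -0.23 (SE 0.08, interval -0.40 to -0.07, adjusted p = 0.2 by limma) and was the only member with an unadjusted p under 0.05. Over all genes 11.9% had such a p. CYTB differed by -0.11 (SE 0.08) and COX1 by -0.08 (SE 0.06). This comparison runs from pattern B to pattern A, and with the pattern as a term the difference was below 0 in all 6 members, from -0.42 for COX2 (adjusted p = 0.331 by limma) to -0.14 for ATP8. Quantile normalization left -0.08 for COX2.

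Males at 3 weeks and naive males share pattern B, and 0 of 6 members passed between them, as did 0% of all genes by limma. The differences lay between -0.12 for COX2 (SE 0.09, interval -0.30 to 0.05) and 0.06 for ATP8 (SE 0.12, interval -0.20 to 0.31), with 0 of the 6 at an unadjusted p under 0.05, where 2.38% of all genes were. Between males at 3 weeks and at 24 h the differences were -0.02 to 0.11 and 0 members passed or had an unadjusted p under 0.05, where 0.0692% of all genes passed and 9.34% had such a p by limma. This comparison runs across the patterns too, and all 6 differences were above 0 with the pattern as a term (0.14 to 0.29) and with a library's position between the patterns as a covariate (0.19 to 0.45), with 0 members passing.

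The sexes differed in 1 of the 6 members in naive animals. COX2 was higher in naive males than in naive females by 0.29 (SE 0.07, interval 0.15 to 0.44, adjusted p = 0.0224 by limma), a 1.23-fold difference between the group means. All 6 naive males were above all 10 naive females, the nearest by 17.83 against 17.81. Over all tested genes 2.28% passed in this comparison, and in 0.512% the libraries of naive males and naive females did not overlap; of the members COX2 alone did not overlap. COX3 differed by 0.17 (SE 0.07, adjusted p = 0.169), CYTB by 0.15 (SE 0.07, adjusted p = 0.238) and COX1 by 0.13 (SE 0.06, adjusted p = 0.194 by limma), while ATP8 differed by -0.01 (SE 0.11, interval -0.22 to 0.20). The comparison runs across the patterns. Without naive male replicate 1, the highest library of its group in 5 of the 6 members, the COX2 difference was 0.22 with an adjusted p of 0.122 by limma. In that library 50.7% of low values lay near whole reads, the lowest share of all. Over the 46 libraries that share correlated with COX2 at r = -0.47 (permutation p = 0.0099, adjusted 0.059), and at r = -0.09 without 2 libraries. With the pattern as a term the COX2 difference was 0.48 with an adjusted p of 0.0569, and with a library's position between the patterns as a covariate, an alternative added after seeing the data, it was 0.45 with an adjusted p of 0.198 (limma). Under quantile normalization, which gives the highest rows nearly the same values, it was 0.08 with an adjusted p of 0.255 by limma.

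At 24 h, where all males and 9 of 10 females were of pattern A, 0 of the 6 members passed between the sexes and 0.0138% of all genes did. The differences lay between -0.07 for COX2 (SE 0.07, interval -0.22 to 0.07) and 0.00 for COX1 (interval -0.12 to 0.11). At 3 weeks 0 members passed, where 3.19% of all genes did, with differences of -0.16 for ATP8 (SE 0.11) to -0.04 for COX2 (SE 0.08). With the pattern as a term 5 of these 6 differences turned, to between 0.01 and 0.10, and COX1 stood at -0.01. In both of these comparisons 0 members had an unadjusted p under 0.05 by limma, against 11.5% of all genes at 24 h and 21.3% at 3 weeks. Averaged over the 3 conditions, the sexes differed by -0.07 to 0.06, and 0 members passed although 19.6% of all genes did. An unadjusted p under 0.05 by limma was found for 0 members and for 32.9% of all genes. For COX1 the difference was 0.01 (interval -0.06 to 0.07). Most males and few females were of pattern B, and with the pattern as a term the differences were all above 0, from 0.04 for ATP8 to 0.16 for COX2, with COX1 at 0.08. With the position covariate they were 0.13 for COX1 to 0.25 for ATP8.

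**Figure D2:**
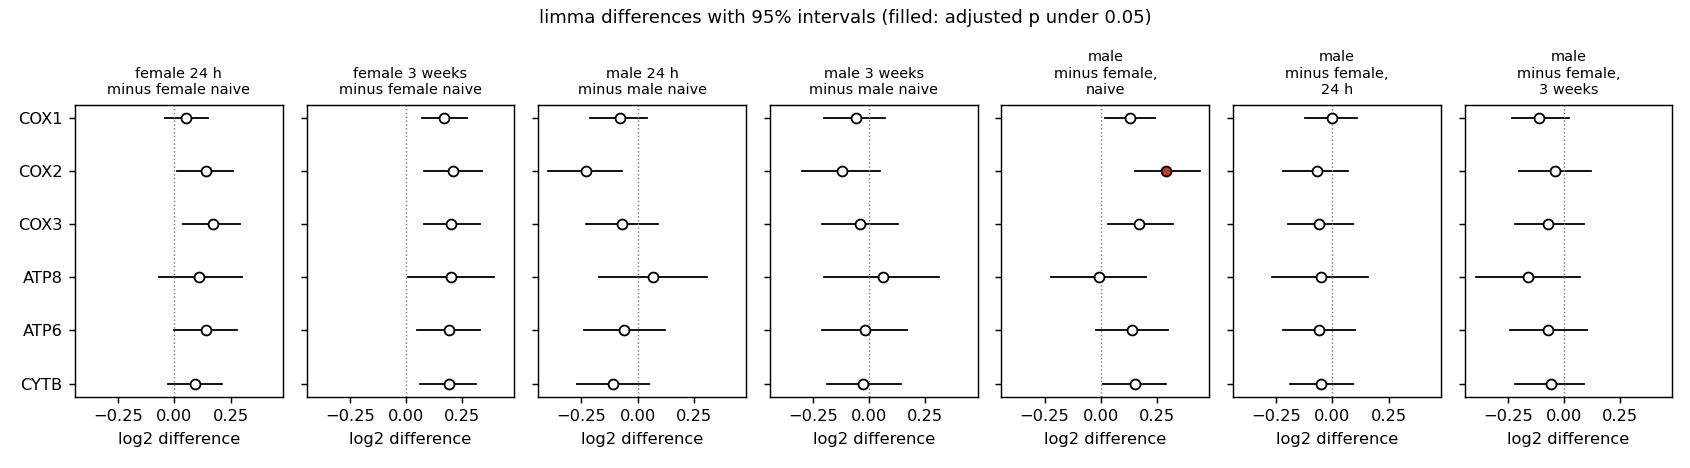
Differences between groups in log2 level (horizontal axes) for the 6 rows in 7 comparisons; points are limma estimates, lines their 95% intervals, and a filled point marks an adjusted p under 0.05. The single filled point is COX2 in naive males minus naive females at 0.29, and the 6 points for females at 3 weeks minus naive lie between 0.17 and 0.21.

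Averaged over both sexes, 0 of 6 members passed at 24 h against naive animals, where 3.01% of all genes did, and the differences lay between -0.05 and 0.09. At 3 weeks they lay between 0.05 and 0.13, and 0 members passed, as did 0% of all genes. At both times 0 members had an unadjusted p under 0.05 by limma, against 19.1% of all genes at 24 h and 3.51% at 3 weeks. The change itself was compared between the sexes. At 24 h the male change minus the female change was below 0 in all 6 members, with a median of -0.20, and 0 passed, where 0.0484% of all genes did. Of the 6, 2 had an unadjusted p under 0.05 by limma, as had 9.03% of all genes. The male change at 24 h runs across the patterns. For COX2 the male change minus the female change was -0.37 (SE 0.10, interval -0.58 to -0.16, unadjusted p = 0.000973, adjusted p = 0.2 by limma). It was -0.08 under quantile normalization, -0.57 with the pattern as a term (adjusted p = 0.18 by limma) and -0.52 with the position covariate (adjusted p = 0.316). At 3 weeks it was again below 0 in all 6 members, from -0.34 for COX2 (SE 0.11) to -0.15 for ATP8 (SE 0.16), with a median of -0.22. Of the 6, 4 had an unadjusted p under 0.05, as had 3.14% of all genes, and 0 passed, as did 0% of all genes (adjusted p = 0.999 for each by limma). Since the members varied together, these 4 are not separate results. The naive animals of both sexes enter both of these comparisons.

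The members varied together from animal to animal. After group means were removed, all 15 pairs of members correlated positively over the 46 libraries (Pearson's r 0.43 to 0.95, median 0.80; Spearman's rho 0.44 to 0.94, median 0.79), and all 15 passed after adjustment over the 15 pairs (100000 permutations within groups). COX3 and ATP6 had the highest correlation (r = 0.95, rho = 0.94, permutation p = 1e-05, the smallest these permutations can give, adjusted 1.2e-05). ATP6 and CYTB followed at r = 0.92 (rho = 0.90, permutation p = 1e-05, adjusted 1.2e-05). ATP8 and ATP6, which lie on the same messenger, had r = 0.86 (rho = 0.83, permutation p = 1e-05, adjusted 1.2e-05). COX2 and ATP8 had the lowest (r = 0.43, permutation p = 0.018, adjusted 0.018; rho = 0.44, permutation p = 0.0067). Without the 2 libraries farthest from the median of the first member of a pair, r was 0.31 to 0.94. The share of passing pairs among other rows was not computed, here or within the patterns below.

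Within the 32 libraries of pattern A the 15 pairs had r of 0.62 to 0.94 (median 0.85), and all 15 passed. Within 13 libraries of pattern B, a number that leaves out its only female at 24 h, r was 0.06 to 0.96 (median 0.85) and 10 of 15 pairs passed (permutation, adjusted over the 15). COX2 with ATP8 had r = 0.75 (rho = 0.75, permutation p = 3e-05, adjusted 4.1e-05) in pattern A and r = 0.06 (rho = 0.02, permutation p = 0.88, adjusted 0.88) in pattern B. The difference between the patterns was not tested. In the pattern B males these 2 rows parted in single libraries: naive male replicates 2 and 3 had COX2 levels of 17.93 and 18.07 with ATP8 levels of 14.66 and 15.10, and male replicate 1 at 3 weeks had 18.01 with 15.01.

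To see how far the members stand together among all rows, each was correlated with the mean of the other 5 over the 46 libraries, group means removed, and ranked among 14450 rows that held no other member. ATP6 (r = 0.95), CYTB (r = 0.95) and COX3 (r = 0.94) ranked 1, COX1 (r = 0.82) and ATP8 (r = 0.78) ranked 5, and COX2 (r = 0.71) ranked 6. Against the mean of all 6 members the 5 highest of the other 14449 rows were those placed as ND2 (r = 0.90), ND1 (r = 0.90), ND4 (r = 0.87), ND3 (r = 0.82) and ND6 (r = 0.78), all complex I. The remaining complex I rows, ND5 (r = 0.44) and ND4L (r = 0.35), ranked 196 and 680. Of the 14442 rows outside the mitochondrial identifiers, 5 had r above 0.6, and their median r was -0.01. These correlations are descriptions over points that share libraries and a normalization.

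**Figure D3:**
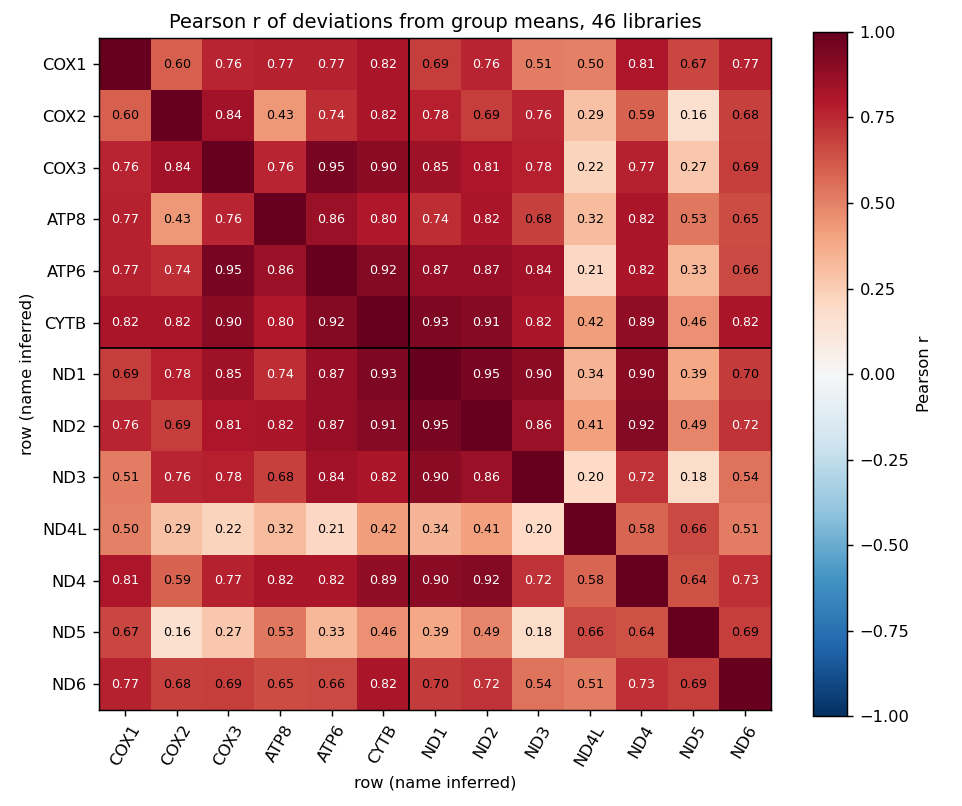
Pearson's r between the 13 mitochondrial rows over 46 libraries, computed on deviations from group means; black lines part the 6 described rows from the 7 placed as complex I, and colour gives r from -1 to 1. All pairs among the 6 lie between 0.43 and 0.95, and the ND4L and ND5 rows are paler than the rest.

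The 7 complex I rows were compared in the same way. Most of them varied together with the members, so counts of these rows are not counts of independent results either. Between females at 3 weeks and naive females their differences were 0.16 to 0.26 (median 0.19), 0 of 7 passed, and 5 had an unadjusted p under 0.05 by limma, as had 4.91% of all genes. At 24 h in females they were -0.09 to 0.17 (median 0.08), with 5 above 0 and 2 below. Of the 7, 0 passed or had an unadjusted p under 0.05, where 19.4% of all genes had such a p. In males at 24 h against naive males all 7 were below 0, from -0.30 to -0.07, with a median of -0.20 against -0.07 for the members. Of the 7, 0 passed and 3 had an unadjusted p under 0.05 by limma, as had 11.9% of all genes. Between naive males and naive females they were 0.04 to 0.30 (median 0.17), with 0 passing and 2 at an unadjusted p under 0.05, as were 19.2% of all genes. This comparison and that of males at 24 h with naive males run across the patterns.

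Since ATP8 and ATP6 lie on 1 messenger, their ratio leaves out how much mitochondrial RNA a library holds. The log2 ratio of the ATP8 to the ATP6 row is not per length, and only its differences between libraries are read. Gene-specific normalization factors do not cancel in it. Comparisons of naive males with naive females or with males at 24 h run across the patterns, and the ratio was not fitted with the pattern as a term. The 10 naive females averaged -3.02 ± 0.08 (SD), the 10 paired for 24 h -3.05 ± 0.10 and the 9 paired for 3 weeks -3.01 ± 0.05. The 6 naive males averaged -3.17 ± 0.21 (SD), the 6 paired for 24 h -3.04 ± 0.05 and the 5 paired for 3 weeks -3.10 ± 0.16. Naive males spread from -3.42 to -2.96 and the males at 3 weeks from -3.30 to -2.92, while males at 24 h stayed between -3.10 and -2.95. In 7 comparisons none passed: the difference was -0.15 between naive males and naive females (2-sided exact permutation p = 0.0517, adjusted 0.362), 0.13 between males at 24 h and naive males (exact permutation p = 0.182, adjusted 0.424), and -0.03 and 0.01 between females at 24 h or 3 weeks and naive females (exact permutation p = 0.512 and 0.675, adjusted 0.727 and 0.788).

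**Figure D4:**
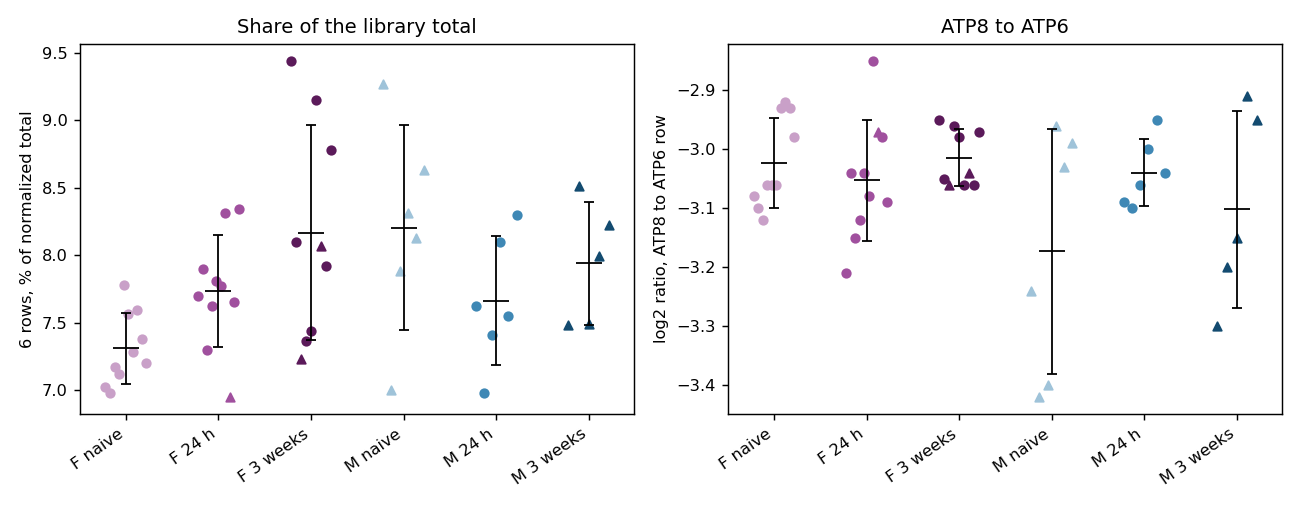
Left, the 6 rows together as a percentage of the normalized counts of each library; right, the log2 ratio of the ATP8 to the ATP6 row; neither vertical axis starts at 0. Circles are libraries of normalization pattern A, triangles of pattern B, and black bars mean ± SD; naive females average 7.31% on the left, and the lowest ratios on the right, down to -3.42, are pattern B males.

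Correlations of the members with library depth did not pass the test. Over 46 libraries r between log2 estimated depth and a member lay between -0.34 for COX2 (rho = -0.27, permutation p = 0.05, adjusted 0.3 over the 6 relations) and 0.08 for COX1 (rho = 0.12, permutation p = 0.66, adjusted 0.66), and none of the 6 passed. Without the 2 libraries farthest from the median depth the r of COX2 was -0.26. Within pattern A it was -0.34 (permutation p = 0.15) and within pattern B -0.32 (permutation p = 0.45). The share of low values near whole reads, a measure added after seeing the data, correlated with COX2 at r = -0.47 (rho = -0.30, permutation p = 0.0099, adjusted 0.059), a relation that rested on 2 libraries, since r was -0.09 without the 2 farthest from the median. Within pattern A the same measure passed for COX2 (r = -0.56, permutation p = 0.013, adjusted 0.027), ATP8 (r = -0.54, permutation p = 0.0073, adjusted 0.022) and CYTB (r = -0.57, permutation p = 0.0067, adjusted 0.022), and without 2 libraries r was -0.08, -0.18 and -0.17. Spearman's rho for these 3 was -0.36, -0.41 and -0.41 and did not pass (adjusted permutation p = 0.15, 0.12 and 0.12). The position of a library between the patterns correlated with ATP8 at r = -0.39 (permutation p = 0.021, adjusted 0.13). Its rho was -0.42 (permutation p = 0.0074, adjusted 0.044). Within pattern A the r of ATP8 was -0.37 (permutation p = 0.049, adjusted 0.099) and within pattern B -0.30 (permutation p = 0.41, adjusted 0.71). Over the 46 libraries the r of the 6 members with position ran from -0.39 for ATP8 to -0.17 for COX2, and none passed. Without the 2 libraries farthest from the median position, r was -0.47 for ATP8. The 6 members then ran from -0.51 for CYTB to -0.39 for COX1, and these values were not tested. In each set of libraries 18 such relations were computed, 6 for each of 3 measures.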

How the data were processed

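Libraries from poly(A)-selected RNA were primed with random hexamers, per the labels' protocols, and the kit named there does not mark strand. The submitters' processing notes name fastp 0.14.1, Salmon 0.12 and DESeq2, the latter without a version. For the build and the gene models, "not given in the sources used here" applies. The deposited unit, read from the values, is log2 of a normalized count plus 1, and totals after undoing the log were 26.7 to 29.5 M. The authors' values hold a gene-specific factor, read here from values of up to 3 reads within 0.2 of a whole number, which gave the 2 patterns by average-linkage clustering, so reads could not be recovered as whole numbers and count models do not apply. Estimated depth is the total over what 1 read is worth.

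Tests took the 14455 of 17479 rows whose normalized count averaged 10 or more, all 6 members among them, with limma 3.58.1 in R 4.3.3, with trend and robust empirical Bayes, on 6 group means over all 46 libraries. P-values were adjusted by Benjamini-Hochberg over all tested genes in each of 14 comparisons, with a threshold of 0.05, and intervals are 95%. Permutations used Python 3.11.15 with numpy 2.4.6 and were 2-sided. The scripts were tested on simulated data. Alternatives changed the scaling, the filter, the pseudocount and the model, or left out 1 library at a time. The members were chosen by identifier, and they, the lists and the alternatives were set with earlier results of these data known. The naming rule took the 6 members, the other rows with identifiers 1 to 37, and the 2 other rows most like the members. Lists of nuclear subunits and cell type markers were not run, since the RefSeq gene table (assembly MicOch1.0) matched 0 identifiers, and no sequence or gene length was used. Whether animals of a group were siblings is not given, so p-values measure the spread between these samples.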

Additional observations from a re-analysis of the deposited data

How the results depend on the processing

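The 84 differences of the members (6 rows in 14 comparisons) were recomputed under 60 alternatives. Of 4966 values, 4962 kept their side of the threshold, and the 4 others all concern COX2 in naive males against naive females. The number of members passing there was 1 and became 0 under quantile normalization (difference 0.08, adjusted p = 0.255 by limma), with the normalization pattern as a term (0.48, adjusted p = 0.0569), with the position between patterns as a covariate (0.45, adjusted p = 0.198) and without male naive replicate 1 (0.22, adjusted p = 0.122), so leaving out 1 library gave 0 to 1. In 127 values a difference that passed in neither setting had the other sign, and some of those values stood at 0.00. They fell on 50 of the 84 differences, which were up to 0.24 in size in the main fit. COX1, the highest row by count in every library, becomes constant under quantile normalization and has no value there. COX3, ATP6, CYTB and COX2 rank 3, 5, 7 and 8 of the 17479 rows by mean, so that this scaling itself holds their differences small. Their values under it, which are among the 4966, therefore do not test these differences, and this holds for the 0.08 of COX2 too. Same-numbered libraries of different groups correlated at a mean r of 0.00, and 5 of 46 correlated best with their own number. This check averaged over all pairs of groups. It therefore cannot tell whether males and females of the same housing time were partners of each other. With the replicate block COX2 in naive animals differed by 0.30 (adjusted p = 0.0191 by limma), with 1 member passing there and 0 in the other 13 comparisons. No scaling moved the median of all genes by over 0.04. The ratio of ATP8 to ATP6 kept its side of the threshold in all 336 recomputed values, the correlations with depth passed in 0 of 49 settings, and 14 to 15 of the 15 pairs passed. Counting error is small at these levels, the lowest value of any member being 14.66 on the log2 scale (ATP8).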

Other observations

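Outside the mitochondrial identifiers, the rows most like the members over the 46 libraries were ENSMOCG00000002599 (r = 0.63 with the mean of the 6) and ENSMOCG00000008729 (r = 0.61), which no table used here pairs with a symbol. For ENSMOCG00000002599 the 10 naive females averaged a log2 level of 8.70 ± 0.13 (SD), the 10 paired for 24 h 9.00 ± 0.21 and the 9 paired for 3 weeks 8.75 ± 0.19. The 6 naive males averaged 8.78 ± 0.30 (SD), the 6 paired for 24 h 8.75 ± 0.24 and the 5 paired for 3 weeks 8.68 ± 0.10. ENSMOCG00000008729 stood at 8.80 ± 0.16, 8.96 ± 0.28 and 8.89 ± 0.18 in the female groups and at 8.88 ± 0.16, 8.84 ± 0.15 and 9.01 ± 0.08 in the male groups, in the same order and with the same n.

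The rows placed as ND4L and ND5 correlated with each other at r = 0.66 over the 46 libraries, while ND4L correlated with the members at 0.21 to 0.50 and ND5 at 0.16 to 0.67. ND4L averaged 14.80 ± 0.08 (SD, n = 6) in naive males and 14.53 ± 0.12 (n = 6) in males at 24 h, a limma difference of -0.27 (SE 0.11, adjusted p = 0.249). That difference was not particular to ND4L, since ND6 differed by -0.30 and ND3 by -0.28 in this comparison, which runs across the patterns. Of 42 sets of values (the 6 members and the ATP8 to ATP6 ratio, each in 6 groups), 0 held a library far from the others by Dixon's criterion, where chance gives about 1 in 20.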
